A study of Rattus norvegicus with 9 samples.

Results

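Igfbp1, Irs2, Ppp1r3g, G6pc, Pck1, Sds, Bcl6, Noct, Lifr and A1cf are 10 liver genes, of 40154 gene rows, that were picked because 2 of 9 rat liver libraries departed from their groups in the same direction at these genes. The libraries are HepLPC replicate 2 and PBS replicate 1, and the genes were selected on the deviation of log2(RPKM + 1) from the mean of the library's own group of 3. RPKM is reads per kilobase of gene model per megaread (M) of library. Levels of the 10 genes in these 2 libraries are therefore given as a description, with no test. All 10 genes passed the filter used for tests, at least 1 RPKM in 3 or more libraries, as did 11124 genes in all.

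The livers came from wild-type Sprague-Dawley rats, 5 months old, in 3 groups of 3 libraries. HepLPC livers were from cirrhotic rats injected with rat HepLPCs, hepatocyte-derived liver progenitor-like cells, PBS livers were from cirrhotic rats given phosphate-buffered saline instead, and Normal livers were from rats given neither carbon tetrachloride (CCl4) nor an injection. Normal rats lacked both the injury and the injection, so effects of these cannot be told apart between PBS and Normal livers. The labels do not say whether replicates were separate animals, so a p-value reflects how these libraries differ, which may be technical in part. The feeding state of the rats and the hour of collection are not given in the sources used here.

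Between meals the liver makes glucose from lactate, glycerol and amino acids. Falling insulin releases the transcription factor FOXO1 to the nucleus, while glucagon acts through cyclic AMP and the factor CREB, and together with glucocorticoids they switch on genes such as G6pc, Pck1 and Igfbp1. A fasted liver is also known for fatty acid oxidation and ketone production driven by PPARA, and for low expression of insulin-induced genes such as the fat-synthesis enzymes.

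Promoter sequence was looked up because the 8 higher genes include known targets of insulin and cyclic AMP signalling. RefSeq (assembly GRCr8) had an entry for 8 of the 10 genes, with G6pc listed as G6pc1, and Irs2 and Sds had none. The 250 bases before each start were searched on both strands for 6 motifs. The FOXO motif GTAAACA was in the window of 1 of the 8 genes, A1cf, and in 3.21% of 33469 promoters. The insulin response sequence CAAAACA was in those of 2, Igfbp1 and G6pc, and in 5.46% of promoters. The short form TGACG of the cyclic AMP response element was in those of 2, Pck1 and Bcl6, and in 18.2% of promoters, while the whole element TGACGTCA was in 0 of the 8 windows and in 1.59% of promoters. The glucocorticoid receptor motif TGTTCT was in 1, Ppp1r3g (17.5% of promoters), and the E-box CACGTG in 1, Bcl6 (5.59%), where it overlapped a TGACG. The windows of 4 genes are shown, 2 with the insulin response sequence, 1 with TGACG (as CGTCA) and A1cf with the FOXO motif, each 5′ to 3′ on the + strand with the motif in capitals. They lie at chr14:86261027-86261276 (Igfbp1), chr10:86807409-86807658 (G6pc), chr3:182348322-182348571 (Pck1) and chr1:239149243-239149492 (A1cf). A match describes the letters in the window and does not show that a factor bound there.
Igfbp1: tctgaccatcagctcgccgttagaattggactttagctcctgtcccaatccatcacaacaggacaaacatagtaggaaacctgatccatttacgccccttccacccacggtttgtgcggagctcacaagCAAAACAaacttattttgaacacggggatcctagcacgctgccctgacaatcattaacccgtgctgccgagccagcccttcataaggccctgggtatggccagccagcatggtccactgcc
G6pc: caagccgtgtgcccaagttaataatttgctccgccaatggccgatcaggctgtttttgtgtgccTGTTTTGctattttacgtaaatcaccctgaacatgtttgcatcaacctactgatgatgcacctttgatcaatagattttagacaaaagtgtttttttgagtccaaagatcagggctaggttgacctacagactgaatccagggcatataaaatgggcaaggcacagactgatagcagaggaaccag
Pck1: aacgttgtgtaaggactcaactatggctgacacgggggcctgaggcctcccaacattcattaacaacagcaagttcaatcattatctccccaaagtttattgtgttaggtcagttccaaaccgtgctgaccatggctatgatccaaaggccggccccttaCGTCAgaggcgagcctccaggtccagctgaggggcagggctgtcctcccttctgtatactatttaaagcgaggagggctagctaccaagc
A1cf: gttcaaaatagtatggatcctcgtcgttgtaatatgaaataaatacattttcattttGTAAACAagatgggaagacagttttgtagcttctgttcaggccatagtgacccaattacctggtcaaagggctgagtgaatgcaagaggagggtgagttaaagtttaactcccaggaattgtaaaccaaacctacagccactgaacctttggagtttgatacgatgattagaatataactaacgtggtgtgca

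Depth, worked out from the RPKM values, was 17.4 to 21.8 M reads per library, and a member held between 5 and 45448 reads in a library. The summed RPKM was 679882 in HepLPC replicate 2 and 624322 in PBS replicate 1, against 561769 to 593580 in the other 7 libraries. Hepatocyte markers were high throughout: the 8 on the list summed to 73598 to 88351 RPKM in HepLPC, 65715 to 73653 in PBS and 70670 to 91120 in Normal livers. Whole liver holds several cell types, and fewer cells of a type and less RNA per cell cannot be told apart in it.

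Among signalling genes, Igfbp1 departed furthest. Igfbp1 encodes a secreted binding protein of insulin-like growth factors and is held down by insulin. It stood at 9.41, 66.0 and 5.62 RPKM in HepLPC replicates 1, 2 and 3, at 214, 7.91 and 6.27 RPKM in PBS replicates 1, 2 and 3, and at 9.72, 55.2 and 12.3 RPKM in Normal replicates 1, 2 and 3. Its level in HepLPC replicate 2 was 8.78 times the mean of the other 2 HepLPC libraries, and in PBS replicate 1 it was 30.2 times the mean of the other 2 PBS libraries. Normal replicate 2 was also high, so the 3 groups overlapped.

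Irs2 encodes an adaptor that carries the insulin receptor's signal and is itself induced when insulin is low. Its levels were 0.961, 2.98 and 1.29 RPKM in HepLPC replicates 1, 2 and 3, with 4.66, 1.85 and 1.83 RPKM in PBS replicates 1, 2 and 3, and 3.10, 4.45 and 2.16 RPKM in Normal replicates 1, 2 and 3. The departing libraries led their own groups at 2.65 times (HepLPC) and 2.53 times (PBS) the mean of the rest, but Normal replicates 1 and 2 lay above HepLPC replicate 2. Irs2 was the exception among the 8 higher genes in that the 2 libraries were not the top 2 of all 9.

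Ppp1r3g encodes a glycogen-targeting subunit of protein phosphatase 1 that is known from mouse liver to rise on fasting. It was low, with 0.198, 2.74 and 0.173 RPKM in HepLPC replicates 1, 2 and 3, against 4.71, 0.371 and 0.166 RPKM in PBS replicates 1, 2 and 3 and 0.110, 1.88 and 0.611 RPKM in Normal replicates 1, 2 and 3. Behind these were 14, 194 and 11 reads in HepLPC, 307, 28 and 12 reads in PBS, and 8, 150 and 48 reads in Normal replicates 1, 2 and 3. Both departing libraries exceeded every other library, with Normal replicate 2 next. The ratios to the rest of the group were 14.8 in HepLPC and 17.5 in PBS. No library beyond the departing pair and Normal replicate 2 reached 1 RPKM, so Ppp1r3g passed the filter through these alone.

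The 3 glucose-producing and amino acid-degrading enzymes were among the more abundant members. G6pc encodes the catalytic subunit of glucose-6-phosphatase, which releases free glucose. Its RPKM was 201, 365 and 57.3 in HepLPC replicates 1, 2 and 3, then 328, 72.9 and 44.7 in PBS replicates 1, 2 and 3, and 92.1, 132 and 55.9 in Normal replicates 1, 2 and 3. HepLPC replicate 2 and PBS replicate 1 were the 2 highest of 9, and HepLPC replicate 1 came next, so the HepLPC group held 2 high libraries.

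Pck1 encodes cytosolic phosphoenolpyruvate carboxykinase, the entry step of gluconeogenesis. It was at 560, 856 and 349 RPKM in HepLPC replicates 1, 2 and 3, at 869, 307 and 478 RPKM in PBS replicates 1, 2 and 3, and at 326, 736 and 803 RPKM in Normal replicates 1, 2 and 3. Normal replicates 2 and 3 came close to the 2 departing libraries, which led the 9 by a small margin. Sds encodes serine dehydratase, which turns serine into pyruvate and is induced by glucagon. Its levels were 55.2, 90.6 and 12.9 RPKM in HepLPC replicates 1, 2 and 3, 100.5, 11.8 and 24.8 RPKM in PBS replicates 1, 2 and 3, and 2.91, 27.8 and 29.2 RPKM in Normal replicates 1, 2 and 3. The departing libraries were again the highest pair, and all 3 groups overlapped for both enzymes.

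Bcl6 and Noct have regulatory roles. Bcl6 encodes a transcriptional repressor that restrains PPARA targets in mouse liver. It was at 1.94, 9.71 and 1.19 RPKM in HepLPC replicates 1, 2 and 3, at 8.11, 2.16 and 1.15 RPKM in PBS replicates 1, 2 and 3, and at 1.45, 3.64 and 2.42 RPKM in Normal replicates 1, 2 and 3. The 2 departing libraries stood clear of the other 7, of which Normal replicate 2 was the highest.

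Noct encodes nocturnin, a rhythmically expressed enzyme that takes a phosphate off NADP. Its RPKM was 9.72, 15.3 and 1.01 in HepLPC replicates 1, 2 and 3 (490, 773 and 46 reads), against 12.7, 1.32 and 2.19 in PBS replicates 1, 2 and 3 (591, 71 and 113 reads), and 0.288, 0.0879 and 0.803 in Normal replicates 1, 2 and 3 (15, 5 and 45 reads). HepLPC replicate 1 came next, below the departing pair and above the other libraries. Every HepLPC and every PBS library exceeded every Normal library. All Normal libraries were under 1 RPKM, so Noct passed the filter through the HepLPC and PBS libraries alone, and nothing is read from this separation.

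Lifr and A1cf went the other way. Lifr encodes the receptor for leukaemia inhibitory factor. It stood at 4.59, 0.509 and 3.96 RPKM in HepLPC replicates 1, 2 and 3, at 1.05, 7.65 and 7.47 RPKM in PBS replicates 1, 2 and 3, and at 4.06, 2.71 and 2.98 RPKM in Normal replicates 1, 2 and 3. The departing libraries were the lowest 2 of 9, at 0.12 times (HepLPC) and 0.14 times (PBS) the mean of the rest of their groups.

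A1cf encodes the RNA-binding partner of the enzyme that edits apolipoprotein B messenger RNA. Its levels were 27.4, 5.21 and 29.7 RPKM in HepLPC replicates 1, 2 and 3, 10.3, 35.5 and 37.4 RPKM in PBS replicates 1, 2 and 3, and 40.7, 29.3 and 28.5 RPKM in Normal replicates 1, 2 and 3. Here too the departing pair was lowest, at 0.18 times (HepLPC) and 0.28 times (PBS) the rest of the group, while the other 7 libraries lay between 27.4 and 40.7 RPKM. The plot of levels by library shows the 10 genes side by side.

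**Figure D1:**
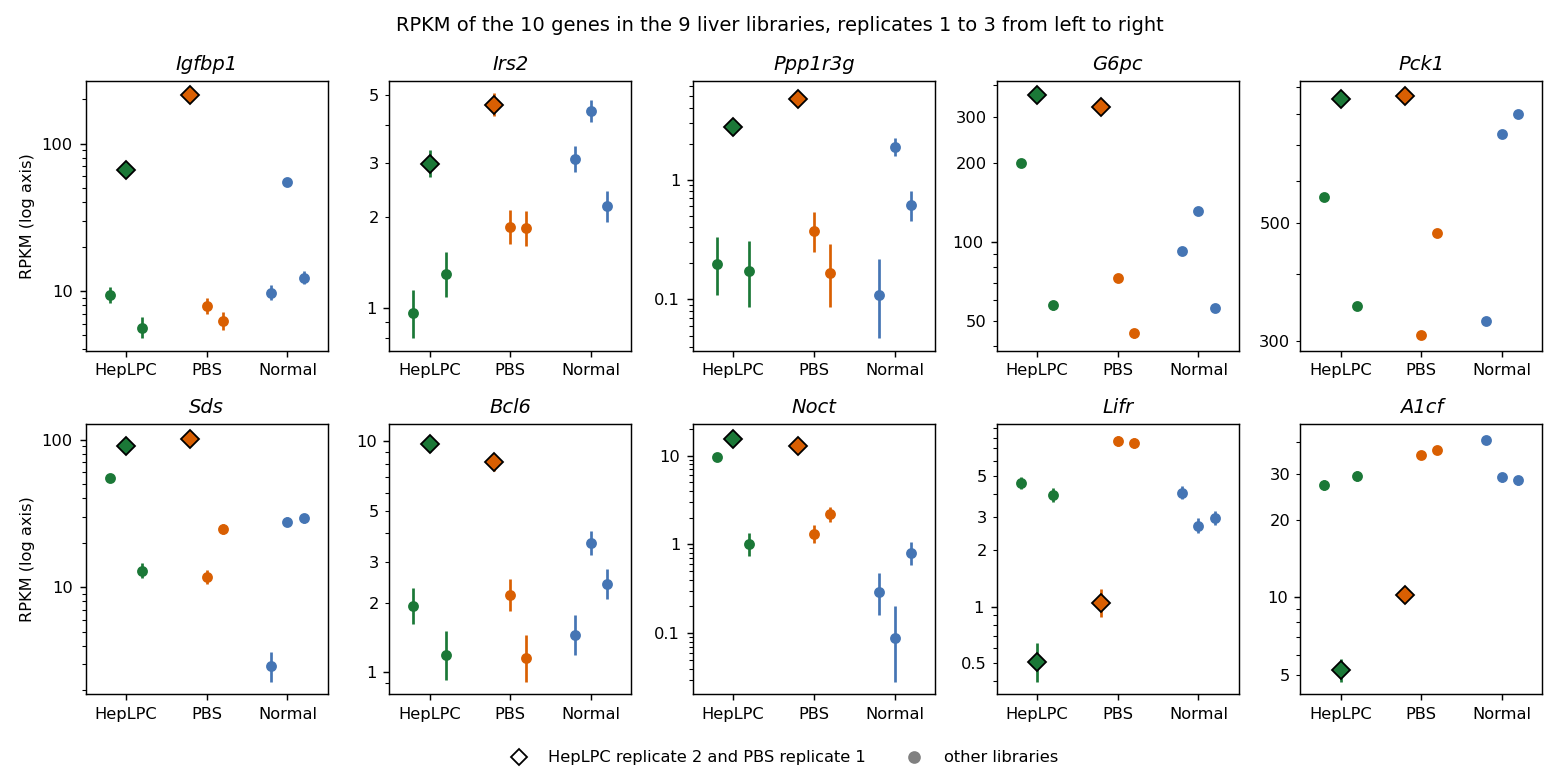
RPKM (log axis) of the 10 genes in each of the 9 libraries, by group, with replicates 1 to 3 from left to right. Diamonds mark HepLPC replicate 2 and PBS replicate 1, and bars are exact 95% Poisson intervals of the reads, which cover counting error only. In 7 panels the diamonds are the 2 highest of 9 points, in Lifr and A1cf the 2 lowest, and in Irs2 Normal replicates 1 and 2 lie between them.

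On the log2(RPKM + 1) scale the 8 higher genes deviated by a median of 1.16 in HepLPC replicate 2 and 1.502 in PBS replicate 1, where the median over all tested genes was -0.09 and -0.08. Igfbp1 deviated by 2.01 and 3.16 in HepLPC replicate 2 and PBS replicate 1, and Irs2, the least of the 8, by 0.61 and 0.66. Between them came Pck1 with 0.63 and 0.79, and the other 5 with 1.11 to 1.39 in HepLPC replicate 2 and 1.20 to 1.67 in PBS replicate 1. Lifr deviated by -1.20 and -1.38, and A1cf by -1.50 and -1.16. Deviations above 0 in both libraries were held by 27.4% of tested genes and below 0 in both by 50.7%, but since these values chose the genes nothing is read from their count. By construction the deviations of the other 2 libraries of a group sum to the opposite of the departing one, though each need not be opposite: HepLPC replicate 1 was also above its group mean for Noct (0.60), Sds (0.44), G6pc (0.31) and Pck1 (0.02).

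The genes were a choice among the most shared deviations and not the whole of them. Ranked by the smaller of the 2 deviations, Igfbp1 was at place 1 of the higher genes, Noct at 3, Bcl6 at 4, G6pc at 6, Sds at 7, Ppp1r3g at 8, Pck1 at 28 and Irs2 at 30. Thus 22 genes outside the set ranked above Irs2. They included LOC100360791 (2.24 in HepLPC replicate 2 and 1.64 in PBS replicate 1), Apof, an apolipoprotein of lipid transfer (1.18 and 1.19), Serpinb1a, a protease inhibitor (1.10 and 1.72), and Gadd45g, a stress-induced gene (1.35 and 1.08). Lifr and A1cf were at places 1 and 2 of the lower genes. Across all tested genes the deviations of the 2 libraries correlated with Pearson r = 0.608, a description over genes that share the same 2 libraries.

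**Figure D2:**
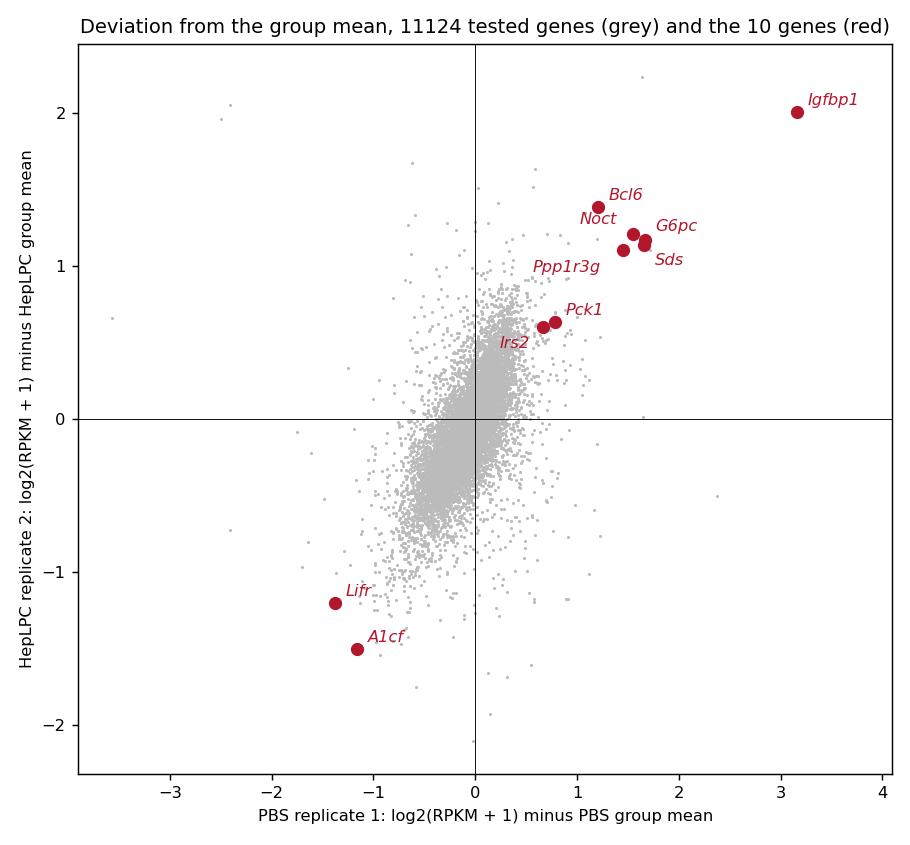
Deviation of log2(RPKM + 1) from the group mean in HepLPC replicate 2 (vertical axis) against PBS replicate 1 (horizontal axis) for the 11124 tested genes in grey, with the 10 named genes marked. The 8 higher genes sit at the upper right, from Irs2 at 0.61 and 0.66 to Igfbp1 at 2.01 and 3.16, and Lifr and A1cf at the lower left.

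The same 2 libraries departed in a second way, by gene length. Across tested genes the deviation fell with length, with a Spearman correlation of -0.528 in HepLPC replicate 2 and -0.564 in PBS replicate 1. HepLPC replicates 1 and 3 gave 0.423 and 0.407, and PBS replicates 2 and 3 gave 0.412 and 0.398. Deviations within a group sum to 0, so these positive values follow at least in part from the departing library. Normal replicates 1, 2 and 3 gave 0.178, -0.157 and -0.019. In the shortest of 10 length bins, of 60 to 949 bases, the median deviation was 0.30 in HepLPC replicate 2 and 0.19 in PBS replicate 1. In the longest bin, of 6678 to 35827 bases, it was -0.32 and -0.34. RNA integrity values are not given in the sources used here, and the part of RNA quality or library preparation in this trend was not tested.

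The members were chosen for large deviations, so their distance from the trend is given as a description. Their gene models ran from 1274 bases (Sds) and 1502 (Igfbp1) to 6301 (Irs2) and 7404 (Lifr), against a median of 2591 over tested genes. Irs2, in a bin with median deviations of -0.27 in HepLPC replicate 2 and -0.25 in PBS replicate 1, was higher in both. With the median of the same length bin taken off, Irs2 deviated by 0.88 and 0.91, Igfbp1 by 1.92 and 3.10, G6pc by 1.23 and 1.70, and Ppp1r3g by 1.28 and 1.58 in HepLPC replicate 2 and PBS replicate 1. Sds, a short gene, deviated by 0.96 and 1.54 with the correction and by 1.14 and 1.66 without it. Lifr, in the longest bin, moved to -0.88 and -1.03, and A1cf to -1.33 and -1.02. All 10 genes kept their direction after this correction. Of all tested genes 34.2% then lay above 0 in both libraries and 34.0% below, and the correlation between the 2 libraries over all genes was 0.496.

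**Figure D3:**
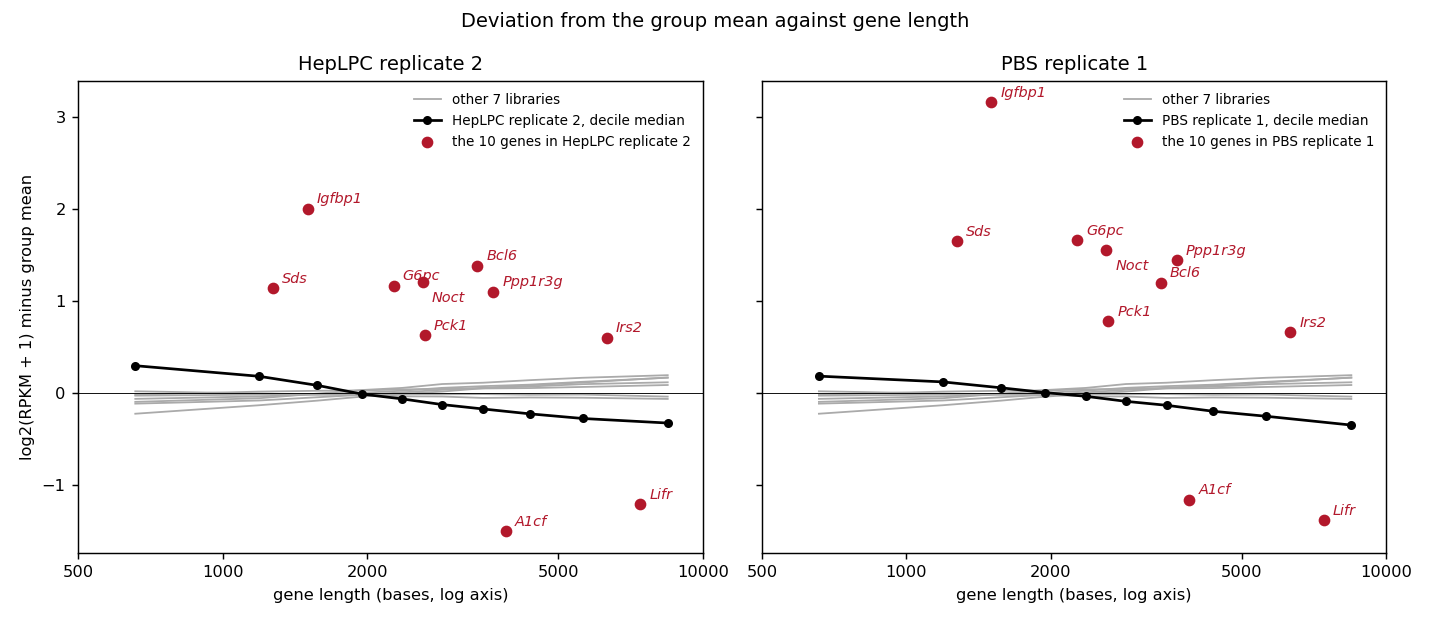
Deviation from the group mean on log2(RPKM + 1) against gene length in bases (log axis) in HepLPC replicate 2 and PBS replicate 1, with the median of each of 10 length bins as a black line, those of the other 7 libraries as grey lines, and the 10 genes marked. The black line falls to -0.32 (HepLPC replicate 2) and -0.34 (PBS replicate 1) in the longest genes, and the marked genes, chosen for their deviations, lie off it in both directions.

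The other 7 libraries were not used by the rule, apart from entering the group means, and the 8 higher genes varied in several of them as well. Normal replicate 2 was the highest Normal library for 5 of the 8 (Igfbp1, Irs2, G6pc, Ppp1r3g and Bcl6), against 23.7% of tested genes. Ppp1r3g passed the filter only because Normal replicate 2 reached 1 RPKM, so nothing is read from its place in this count. Normal replicate 1 was the lowest for 5 (Igfbp1, Pck1, Sds, Ppp1r3g and Bcl6), against 22.5%. HepLPC replicate 1 exceeded HepLPC replicate 3 for 7, all but Irs2, against 35.4%. For Ppp1r3g that order rested on 14 and 11 reads, with overlapping 95% Poisson intervals (0.108 to 0.332 and 0.0862 to 0.309 RPKM). PBS replicate 2 exceeded PBS replicate 3 for 5, against 46.2%, with Pck1, Sds and Noct the other way. Ppp1r3g held 28 and 12 reads in these PBS libraries, so its place in that count is also weak. The genes were chosen together, so these counts describe the libraries and carry no test.

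Other genes of fasting and of insulin action, taken from 10 lists, did not all go the way known for a fasted liver. Of 20 tested gluconeogenic and amino acid-degrading genes outside the 10, 11 lay above the group mean in both departing libraries and 4 below, and after length correction 13 above and 0 below. Shares of all tested genes were 27.4% above and 50.7% below, and 34.2% and 34.0% after correction. The list's median deviation was 0.08 in HepLPC replicate 2 and 0.32 in PBS replicate 1. Slc25a25, a mitochondrial nucleotide carrier, deviated by 0.72 and 1.07, Got1, an aspartate aminotransferase, by 0.38 and 0.86, and Fbp1, fructose-1,6-bisphosphatase, by 0.33 and 0.39. Tat, the tyrosine aminotransferase induced by glucagon and glucocorticoids, was at 597, 596 and 328 RPKM in HepLPC replicates 1, 2 and 3, at 705, 196 and 266 in PBS replicates 1, 2 and 3, and at 141, 261 and 431 in Normal replicates 1, 2 and 3. Tat was thus high in PBS replicate 1, while HepLPC replicate 2 did not exceed HepLPC replicate 1. On the other side lay Pc, pyruvate carboxylase (-0.15 and -0.29), Cps1, the first enzyme of the urea cycle (-0.31 and -0.13), and the amino acid transporter Slc38a4 (-0.32 and -0.06).

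Regulators known to be held down by insulin or induced by fasting were split. Of 19 tested, 6 were above in both libraries and 9 below, and after length correction 8 and 7. The uncorrected counts lie near the shares of all tested genes, 27.4% above and 50.7% below. Those shares were 34.2% and 34.0% after correction. Klf15, a factor for amino acid use, deviated by 0.64 in HepLPC replicate 2 and 0.73 in PBS replicate 1, Cebpb by 1.20 and 0.47, and the cyclic AMP-responsive Crem by 0.42 and 0.25. The FOXO genes and the insulin receptor, whose transcripts are also known to rise when insulin is low, were below. Foxo1 deviated by -0.85 and -0.82, Foxo3 by -0.91 and -0.82 and Insr by -1.07 and -0.87 in HepLPC replicate 2 and PBS replicate 1, and after length correction they remained at -0.62 or lower. Insr was at 1.66 RPKM in HepLPC replicate 2 and 3.18 RPKM in PBS replicate 1, under every other library (6.56 to 9.78 RPKM). Ppargc1a, a coactivator of gluconeogenic genes, did not pass the filter, with 0.332 to 1.23 RPKM over the 9 libraries.

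Genes of PPARA-driven fatty acid oxidation and ketone production lay near the background of all tested genes. Of 19 tested, 4 were above in both libraries and 10 below, beside 27.4% and 50.7% of all tested genes. After length correction 5 were above and 7 below, beside 34.2% and 34.0%. The median deviation was -0.13 in HepLPC replicate 2 and -0.09 in PBS replicate 1. All tested genes had medians of -0.09 and -0.08. The genes whose values follow were all below in both libraries, and none of the 4 above is among them. Cpt1a, the gate of mitochondrial fat entry, deviated by -0.68 and -0.16, and Pdk4, a brake on glucose oxidation, by -1.28 and -0.11. Fgf21, a fasting hormone of the liver, deviated by -0.32 and -0.35, and Ehhadh, an enzyme of fatty acid oxidation in peroxisomes, by -0.75 and -0.40. Fgf21 was near the floor, at 1.65, 0.412 and 0.458 RPKM in HepLPC replicates 1, 2 and 3. In PBS replicates 1, 2 and 3 it was at 0.268, 1.01 and 0.646 RPKM, so little is read from its deviations. Pdk4 stood at 17.9, 6.31 and 39.6 RPKM in HepLPC replicates 1, 2 and 3, and at 19.0, 26.2 and 17.4 RPKM in PBS replicates 1, 2 and 3, so PBS replicate 1 was within its group.

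Genes induced by insulin and feeding were mostly lower, but they are long. Of 22 tested, 2 were above in both libraries and 15 below, with a median deviation of -0.68 in HepLPC replicate 2 and -0.21 in PBS replicate 1 and a median length of 3571 bases. After length correction 3 were above and 11 below, with medians of -0.42 and -0.03. Of all tested genes 27.4% were above and 50.7% below before correction, and 34.2% and 34.0% after it. Srebf1, the master regulator of fat synthesis, deviated by -0.76 and -0.32, Acaca, acetyl-CoA carboxylase, by -1.54 and -0.93, Acacb by -0.94 and -0.64, and the glycogen-targeting subunit Ppp1r3b by -0.73 and -1.11. Khk, fructokinase, was above in both (0.31 and 0.11), as was Rgs16 (0.24 and 0.33). Rgs16 was near the floor, at 0.0632 to 0.756 RPKM over the HepLPC and PBS libraries, and passed the filter through the Normal libraries alone.

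The other 6 lists were mixed or lower before length correction. Of 12 glucocorticoid targets 5 were above in both and 6 below, and those above included Tsc22d3 (0.92 in HepLPC replicate 2 and 0.90 in PBS replicate 1) and Nfkbia (0.69 and 0.78), while Zbtb16 was below (-0.65 and -0.39). Of 14 clock genes 1 was above and 9 below, with Nfil3 at 0.23 and 0.33 and Bhlhe40 at -0.95 and -1.23. Of 9 growth hormone and STAT5 targets 0 were above and 7 below, among them Socs2 (-0.65 and -1.11) and Onecut1 (-1.10 and -1.09). Insulin and IGF signalling had 2 of 13 above and 7 below, with the regulatory subunit Pik3r1 at -0.57 and -0.74. Glycogen metabolism had 3 of 9 above and 6 below, and immediate early genes 3 of 11 above and 4 below. Over all tested genes the shares above and below were 27.4% and 50.7%. After length correction the counts above and below were 7 and 5 for glucocorticoid targets, 3 and 3 for clock genes, 3 and 5 for growth hormone and STAT5 targets, 2 and 4 for insulin and IGF signalling, 4 and 2 for glycogen metabolism, and 4 and 4 for immediate early genes, beside 34.2% and 34.0% of all tested genes.

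**Figure D4:**
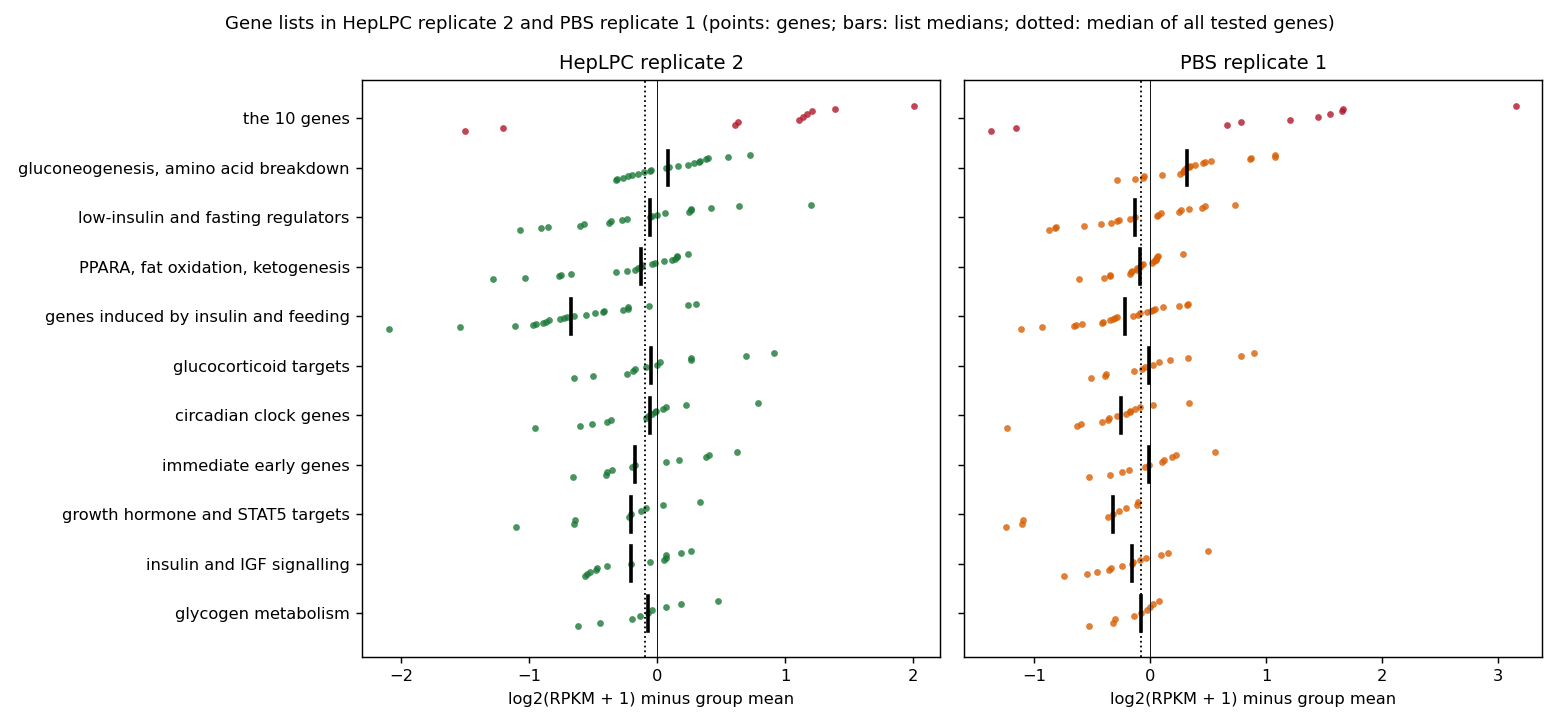
Deviations from the group mean in HepLPC replicate 2 and PBS replicate 1 for the tested genes of the gene lists, with each list's median. Gluconeogenic and amino acid-degrading genes have medians of 0.08 (HepLPC replicate 2) and 0.32 (PBS replicate 1), and genes induced by insulin and feeding -0.68 and -0.21.

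Markers of other cell types moved with the departing libraries in part. Of all tested genes 27.4% lay above the group mean in both libraries and 50.7% below. All 5 tested cholangiocyte markers were below the group mean in both, and the 6 listed summed to 10.3 RPKM in HepLPC replicate 2, against 16.0 and 19.8 in HepLPC replicates 1 and 3, and to 49.1 RPKM in PBS replicate 1, against 176 and 79.7 in PBS replicates 2 and 3. In Normal livers the sum was 8.70 to 10.4 RPKM. Of 7 stellate cell and myofibroblast markers 5 were below in both, with sums of 54.4 to 78.6 RPKM in HepLPC, 89.8 to 152 in PBS and 31.4 to 33.9 in Normal livers. The 4 adipocyte markers, nearly all of their sum being Cfd, summed to 22.6 RPKM in HepLPC replicate 2, against 13.4 and 15.8 in HepLPC replicates 1 and 3, and to 27.2 RPKM in PBS replicate 1, against 11.4 and 12.5 in PBS replicates 2 and 3. In Normal livers their sum was 7.08 to 11.9 RPKM. The fat markers Plin1 and Lep, the pancreas markers Prss1 and Pnlip and the muscle markers Myh4 and Mb were at 0 in all 9 libraries. Other lists showed no common direction. Of 6 macrophage markers 1 was above in both and 1 below, and of 6 endothelial markers 0 and 3. Of 3 tested T, B and NK cell markers 1 was above and 1 below, and of 4 tested erythroid markers 1 and 1. The part of cell makeup in the members' levels was not tested.

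Between groups, limma on log2(RPKM + 1) called 0 of the 10 genes in HepLPC against PBS livers (3.07% of tested genes were called), 0 in HepLPC against Normal (0.0809%) and 0 in PBS against Normal (11.3%), at an adjusted p under 0.05. At an unadjusted p under 0.05 the counts were 0 (16.1% of tested genes), 1 (9.31%) and 0 (27.3%), and limma with voom weights on the recovered reads also called 0. Adjusted p ranged over 0.563 to 0.974, 0.395 to 0.998 and 0.192 to 0.921 in the same order of comparisons. The median log2 fold change of the 10 was -0.11 for HepLPC over PBS, -0.03 for HepLPC over Normal and 0.24 for PBS over Normal, beside -0.14, 0.05 and 0.18 over all tested genes. Choosing genes for the departure of 1 library in each of 2 groups widens their spread, which lowers the chance of a call.

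Noct had the lowest adjusted p of the 10 against Normal livers, where the filter admitted it through the HepLPC and PBS libraries. It averaged 8.68 ± 7.20 RPKM in HepLPC, 5.41 ± 6.34 RPKM in PBS and 0.393 ± 0.369 RPKM in Normal livers (SD, n = 3 each). Its log2 fold change was 2.37 for HepLPC over Normal (SE 0.81, limma adjusted p = 0.395) and 1.78 for PBS over Normal (SE 0.81, limma adjusted p = 0.192). Without the 2 departing libraries these values were 1.77 and 1.00, and with a pseudocount of 0.1 they were 3.77 and 3.10. Values that did not overlap, with the injected group higher, were held by Noct alone of the 10 genes in each of these comparisons, against 12.3% of tested genes for HepLPC over Normal and 32.7% for PBS over Normal. Sds had the next highest fold changes, 1.47 (SE 1.01) for HepLPC over Normal and 1.10 (SE 1.01) for PBS over Normal, with limma adjusted p of 0.732 and 0.528. They rested on single libraries: without Normal replicate 1 they were 0.50 and 0.13, without HepLPC replicate 2 the first was 0.90, and without PBS replicate 1 the second was 0.27.

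Without HepLPC replicate 2 and PBS replicate 1, limma called 0 of the 10 genes in HepLPC against PBS (3.51% of tested genes), 0 in HepLPC against Normal (0.144%) and 1 in PBS against Normal livers (28.5%). The genes were chosen for their departure in these 2 libraries, so leaving both out moves their means and narrows their spread by selection, and the values that follow are a description. The 1 gene was Lifr, with a log2 fold change of 1.02 for PBS over Normal livers, against 0.33 with all 9 libraries. The 2 remaining PBS libraries held 7.65 and 7.47 RPKM of Lifr, and Normal libraries 2.71 to 4.06. Igfbp1, G6pc, Ppp1r3g and Bcl6 had positive fold changes for PBS over Normal with all libraries (0.22 to 0.27) and negative ones without the 2 (-1.31, -0.61, -0.45 and -0.38), none of them called.

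List genes outside the 10 did pass the test between groups, where 10.4% of tested genes rose and 0.944% fell in PBS against Normal livers. In PBS against Normal livers 1 of 20 gluconeogenic and amino acid-degrading genes rose, Pck2, the mitochondrial carboxykinase (log2 fold change 1.00, limma adjusted p = 0.0237), and 3 fell: Slc38a4 (-0.74), Agxt, which detoxifies glyoxylate (-0.78), and Gldc, of glycine cleavage (-0.97). Of 19 PPARA-driven genes 3 fell and 0 rose, with Fgf21 (-1.24) and Acsl1, which activates fatty acids (-0.71), among those that fell. Fgf21 needed the Normal libraries (1.83 to 4.24 RPKM) to pass the filter, so nothing is read from its fall. Of 22 insulin-induced genes 3 fell, the desaturase Scd (-1.56), pyruvate kinase Pklr (-0.93) and Rgs16 (-1.84), and 1 rose, Pgd (0.99). Rgs16 passed the filter through the Normal libraries alone (2.22 to 8.48 RPKM, with 0.0632 to 0.756 in the others), so nothing is read from its fall. Of 19 fasting regulators Txnip alone was called: it rose in PBS over Normal (0.90) and fell in HepLPC over PBS (-0.95, limma adjusted p = 0.0391). The second call was lost with the replicate block, after rescaling, with the filter at 5 RPKM, with no filter, and without HepLPC replicate 1 or 2, PBS replicate 2 or 3, or any 1 Normal library. The first was lost with the replicate block, after rescaling, and without PBS replicate 2 or 3 or Normal replicate 1 or 3. These 2 comparisons share the PBS libraries. Of the 22 genes of the 10 lists called in PBS against Normal livers, all 22 were also called without the 2 departing libraries, 15 after rescaling of the libraries by the median of ratios, where Pck2, Pgd and Txnip were not, and 8 to 22 with any 1 library left out, with 0 reversals. Without the 2 departing libraries the share of all tested genes called went from 11.3% to 28.5%, so keeping all 22 there says little about these genes. In HepLPC against Normal livers 1 gene of the 10 lists was called, the leptin receptor Lepr, which fell (-1.26, limma adjusted p = 0.0273). Lepr passed the filter through the Normal libraries alone (1.32 to 1.73 RPKM, with 0 to 0.374 in the others), so nothing is read from this fall. The call was lost with voom, with a pseudocount of 0.1, with no filter on low values and with the replicate block. It was also lost without the 2 departing libraries together and without HepLPC replicate 3 or any of Normal replicates 1, 2 and 3.

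Genes whose deviations were most like the median profile of the 8 higher genes were sought among 2074 others. These had an SD of deviations of at least 0.3 over the 9 libraries. The profile comes from genes chosen on the 2 departing libraries, so r largely restates departure in them and is a description. The most alike was Nfkbia, the inhibitor of NF-kappa-B (Pearson r = 0.982 over 9 libraries), at 25.2, 42.5 and 16.1 RPKM in HepLPC replicates 1, 2 and 3, 48.2, 18.5 and 23.5 RPKM in PBS replicates 1, 2 and 3, and 16.7, 25.7 and 20.0 RPKM in Normal replicates 1, 2 and 3. It was followed by Tpte2 (0.969), AA926063, Lsm7, LOC108352526, LOC680254, Il1rn, Rasgef1b, Rdh7 and Dnajc15 (0.93). The most opposite were Nav2 (-0.996), Nipal3 (-0.995), Kdm3b, Eppk1 and Zfp280b (-0.984). The 10 alike genes had a median length of 1587 bases and the 5 opposite ones 6455. Among the members, r with that profile, which they helped to make, ran from 0.849 (Sds) to 0.967 (Igfbp1), with -0.933 for Lifr and -0.931 for A1cf.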

How the data were processed

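RNA sequencing of 9 rat liver libraries was deposited as 1 table per library. The authors' tables hold RPKM, as their headers state, for 40154 gene rows each, of which 15120 were at 0 in every library. HISAT2, StringTie and the build hg19 are named in the submitters' processing notes, while the rows carry rat symbols, so the build and annotation behind the RPKM are uncertain. The sources used here do not say how reads of near-identical genes and of opposite strands were split. Groups and replicate numbers came from the sample titles.

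The 10 genes and all gene lists were chosen with earlier results of these data known. Whole reads and gene lengths were recovered from the RPKM of 20959 of 20959 genes above 0 in 3 or more libraries, within a tolerance of 0.01, and 99.8% of the lengths were whole bases. On simulated HepLPC, PBS and Normal libraries this step recovered 1890 of 1910 genes exactly. Intervals are exact 95% Poisson intervals and cover counting error only. limma 3.58.1 (R 4.3.3; eBayes with trend, 2-sided) was run on log2(RPKM + 1) for genes reaching 1 RPKM in 3 libraries, with all 9 libraries in 1 model (6 residual degrees of freedom) and Benjamini-Hochberg adjustment over 11124 genes, and was tested on simulated data. Fold changes on this scale understate the change of low genes. Length correction took off the median deviation of each of 10 length bins in each library. Other settings were pseudocounts of 0.1 and 0.5, no filter or one at 5 RPKM, rescaling by the median of ratios, a replicate block, libraries left out, and voom on the recovered reads. The text names the 10 genes, up to 3 genes per list and direction with the largest shared deviation, a fixed set of genes (Srebf1, Foxo1, Insr, Ppargc1a, Pdk4, Cpt1a, Tat and Fgf21) and the genes most like or unlike the members' profile, while called list genes, genes near the members in rank and marker genes were named after their values were seen. Some genes that these rules name are not reported here. Python 3.11.15 with pandas 2.3.3, numpy 2.4.6, scipy 1.17.1 and matplotlib 3.10.9 did the rest.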

Additional observations from a re-analysis of the deposited data

How the results depend on the processing

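The deviations of the 10 genes in HepLPC replicate 2 and PBS replicate 1 kept their direction with pseudocounts of 0.1 and 0.5, rescaling and length correction, and the median of the 8 higher genes stayed between 1.16 and 1.33 (HepLPC replicate 2) and between 1.502 and 1.689 (PBS replicate 1). The genes were chosen for large deviations in these libraries, so these settings could hardly turn a direction and no support is drawn from it. The length trend ran from -0.602 to -0.528 and from -0.607 to -0.564. Depth limits Noct and Ppp1r3g most, with 5 and 8 reads in their lowest libraries, and Ppp1r3g deviated by 2.21 and 2.51 with a pseudocount of 0.1. Its fold change for HepLPC over Normal was -0.12 and -0.028 with pseudocounts of 0.1 and 0.5 and -0.15 with voom, and that of G6pc for PBS over Normal was -0.0195 after rescaling. The cause was not tested.

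Genes called for PBS against Normal numbered 1262 (1157 higher, 105 lower), but 568 at 5 RPKM, 782 after rescaling (566 higher, 216 lower, moving the all-gene median from 0.18 to -0.0087 on the log2 scale), 2152 after length correction, and 562 (without PBS replicate 3) to 3168 (without both departing libraries) with libraries left out. For HepLPC against PBS the count was 341, with 106, 204 and 775 in the same settings and 90 (without PBS replicate 3) to 398 (without PBS replicate 1) with libraries left out. For HepLPC against Normal it was 9, with 0 at 5 RPKM, 0 without a filter, 5 after rescaling, 0 with voom, and 1 (without HepLPC replicate 3) to 16 (without both departing libraries). The 5 RPKM filter tests fewer genes, and 4 of the 10 genes failed it. The cause of the other moves was not tested.

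With libraries left out, 1 at a time or both departing ones, the log2 fold change of several of the 10 genes changed sign. For PBS over Normal the ranges were -1.31 to 1.13 (Igfbp1), -0.017 to 1.02 (Lifr), -0.61 to 0.81 (G6pc), -0.61 to 0.16 (Pck1), -0.45 to 0.70 (Ppp1r3g), -0.38 to 0.66 (Bcl6) and -0.72 to 0.17 (A1cf). For HepLPC over PBS they were -1.54 to 1.05 (Igfbp1), -0.23 to 0.52 (Pck1), -0.30 to 1.20 (Sds), -0.82 to 0.46 (Ppp1r3g), -0.64 to 0.65 (Bcl6), -0.0060 to 1.503 (Noct) and -1.09 to 0.23 (A1cf). For HepLPC over Normal they were -1.27 to 0.48 (Igfbp1), -0.62 to 0.32 (Lifr), -0.48 to 0.26 (Pck1), -0.54 to 0.38 (Ppp1r3g) and -0.42 to 0.73 (Bcl6). Lifr in PBS over Normal without both departing libraries was the 1 call among these, and the genes were chosen on those 2 libraries. Sds kept its sign in PBS over Normal but ran from 0.13 to 1.77.

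Deviations of same-numbered libraries had correlations of -0.412 to 0.31. These deviations are taken from group means, and the departing HepLPC and PBS libraries carry different numbers. The correlations therefore cannot decide whether the numbers pair the libraries. With the replicate number as a block, 787, 198 and 1 genes were called for PBS against Normal, HepLPC against PBS and HepLPC against Normal, and 0 of the 10.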
